A study of Homo sapiens with 6 samples.

Results

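MIF, its paralogue DDT, the surface receptor CD44 and the MIF-binding protein COPS5 were followed in SN12C cells, a human renal carcinoma line, with and without hairpin RNAs directed at YAP and TAZ. The members are 4 of the 11646 genes measured. Their probes are all those to which the platform annotation gives one of these symbols alone, and they numbered 6 of 47315 on the array: 1 for MIF, 1 for DDT, 3 for CD44 and 1 for COPS5. The annotation used here covers only kept probes, those whose detection p-value lay below 0.05 on 3 or more of the 6 arrays. Probes of these genes outside that set were not analysed here. The genes were put together with the fall of MIF in this same comparison already known, so the changes of the 6 probes are given as a description, with standard errors and no test.

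The series title places the work in tumor cells deficient for NF2. The control arm was "Sn12C pTripz/GFP-luc", cells with the empty inducible vector, and the knockdown arm was "Sn12C pTripz YAPsh/pTripz TAZsh/GFP-luc", cells with inducible shRNAs against YAP and TAZ. GFP-luc and doxycycline were common to both arms. Doxycycline, which switches pTripz hairpins on, was given for at least 3 days, and serum (10%) was left out for the last 24 hours. RNA of each arm was hybridised to 3 Illumina bead arrays, which the series calls technical repeats. Every error below is therefore the spread between arrays of 1 cell line, not between cultures or clones. The p-values below measure no more than that spread. The arms carry different vectors, so the hairpins and any other difference between these engineered cells cannot be told apart.

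MIF, macrophage migration inhibitory factor, is a small cytokine that is stored in the cytoplasm and secreted without a signal peptide. It binds the surface protein CD74, and CD44 acts as the co-receptor that passes the signal on to kinases. DDT, D-dopachrome tautomerase, shares the fold of MIF and also binds CD74. Inside the cell MIF binds COPS5 (also called JAB1), the subunit of the COP9 signalosome that removes NEDD8 from cullins. CD44 is best known as a receptor for hyaluronan, and its cytoplasmic tail is held to actin by ezrin, radixin and moesin or bound by merlin, the NF2 product.

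The promoters of MIF and DDT are shown because both genes lie on chromosome 22, are separated by only 2 protein-coding genes in the RefSeq gene order, and were both lower in knockdown cells. Each window runs from 250 bases before to 50 bases after the RefSeq start (GRCh38.p14). Capitals mark matches to GGAATG, a motif of the TEAD factors that carry YAP and TAZ to DNA, or to ACGTG, the core motif of HIF factors, on either strand. 
MIF promoter, chr22:23894133-23894432, plus strand: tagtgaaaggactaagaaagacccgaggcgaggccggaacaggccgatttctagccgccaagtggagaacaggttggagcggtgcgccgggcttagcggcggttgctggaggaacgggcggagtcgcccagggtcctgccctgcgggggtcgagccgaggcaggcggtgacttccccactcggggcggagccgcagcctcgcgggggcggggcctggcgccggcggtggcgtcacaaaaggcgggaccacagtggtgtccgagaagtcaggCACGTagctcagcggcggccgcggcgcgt
DDT promoter, chr22:23980455-23980754, minus strand: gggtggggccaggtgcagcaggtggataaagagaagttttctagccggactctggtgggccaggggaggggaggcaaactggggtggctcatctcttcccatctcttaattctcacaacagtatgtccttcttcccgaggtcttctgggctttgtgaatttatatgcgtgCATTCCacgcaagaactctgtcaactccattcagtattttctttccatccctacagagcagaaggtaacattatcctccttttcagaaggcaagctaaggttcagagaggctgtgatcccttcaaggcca
The MIF window held 0 matches to GGAATG and 1 to ACGTG, at bases 272 to 276 on the opposite strand. The DDT window held 1 match to GGAATG, at bases 171 to 176 on the opposite strand, and 0 to ACGTG. The CD44 window, on chromosome 11, held 0 and 1. Of 35116 RefSeq promoters of this length, 14% held GGAATG and 21.4% held ACGTG. TGACGTCA, the full CREB motif, was in 1.85% of the promoters and, as an exact string, in 0 of these 3 windows. Partial or inexact forms of this motif were not searched for. GC content was 70.3% in the MIF window and 50% in the DDT window. A match is a string of letters and no measure of binding.

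The depth of the arrays was similar, with 41.6% to 44.3% of probes detected per array. YAP1 RNA fell 2.86-fold, from 8.40 to 6.89 on the log2 scale (change -1.51 ± 0.19 (SE), adjusted p = 0.000607 in limma), with no overlap between the arms. WWTR1, the gene of TAZ, had no kept probe. Of 7 renal carcinoma markers 4 had a kept probe: PAX8 (0.28 ± 0.15 (SE)) and KRT18 (-0.36 ± 0.15) did not pass the threshold, while KRT8 (-1.07 ± 0.12) and VIM (-0.45 ± 0.12) fell on the log2 scale. VIM missed the threshold without knockdown array 2 (adjusted p = 0.0661), and KRT18 passed it with the array number as a block (adjusted p = 0.0476). PAX2, CA9 and CDH16 had none. The summed normalized intensity of the 4 was 8906 to 10080 on the control and 6212 to 6992 on the knockdown arrays. This sum mostly follows VIM, with a control mean of 12.95 on the log2 scale, ahead of KRT8 at 10.27. Its part in the results was not tested. Of 6 leukocyte markers only CD14 and CD68 had a kept probe. CD14 rose by 0.71 ± 0.12 on the log2 scale (adjusted p = 0.00284), and CD68 did not pass. The sum of these was 1810 to 2077 on the control and 1857 to 2201 on the knockdown arrays. It mostly follows CD68, with a control mean of 10.8 on the log2 scale against 7.44 for CD14. The part of these markers in the results was not tested. PTPRC, CD3E, LYZ and MS4A1, and the 3 endothelial markers PECAM1, CDH5 and VWF, had no kept probe.

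MIF went from a bright signal to just above background. Control arrays 1 to 3 gave raw intensities of 630.1, 1091.9 and 826.1, and knockdown arrays 1 to 3 gave 119.4, 106.5 and 103.7. The control values were 7.19, 10.7 and 9.09 times the median probe of their own array, and the knockdown values 1.21, 1.17 and 1.15 times. The probe (ILMN_1807074, annotated to NM_002415) was still detected on all 3 knockdown arrays, with detection p-values of 0.0026, 0.0013 and 0.0013.

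After background correction and quantile normalization the log2 intensity of MIF was 9.58, 9.42 and 9.72 in control cells and 5.12, 5.26 and 5.23 in knockdown cells. The arms were separated by 4.16 log2 units at their closest arrays. The means were 9.57 ± 0.15 and 5.20 ± 0.07 (SD, n = 3), a log2 change of -4.37 ± 0.12 (SE) or 20.7-fold lower. In these bulk samples less MIF RNA per cell and fewer cells with MIF RNA cannot be told apart. Of 20348 kept probes, 7 other probes fell further. 

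The direction of the MIF change held under each of the 17 other settings tried, but its size rested on the background correction. Without background correction MIF was 7.58-fold lower and with a larger offset of 50 in place of 16 it was 11.2-fold lower. The raw knockdown values lay close to the medians of their arrays, 90.4 to 98.7. The deposited log2 values of MIF, 9.58, 9.42, 9.72, 5.12, 5.26 and 5.23 in the same order of arrays, differed little from those computed here. RefSeq lists the antisense RNA MIF-AS1 over the MIF gene, and the share of each transcript in the probe's signal was not tested.

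**Figure D1:**
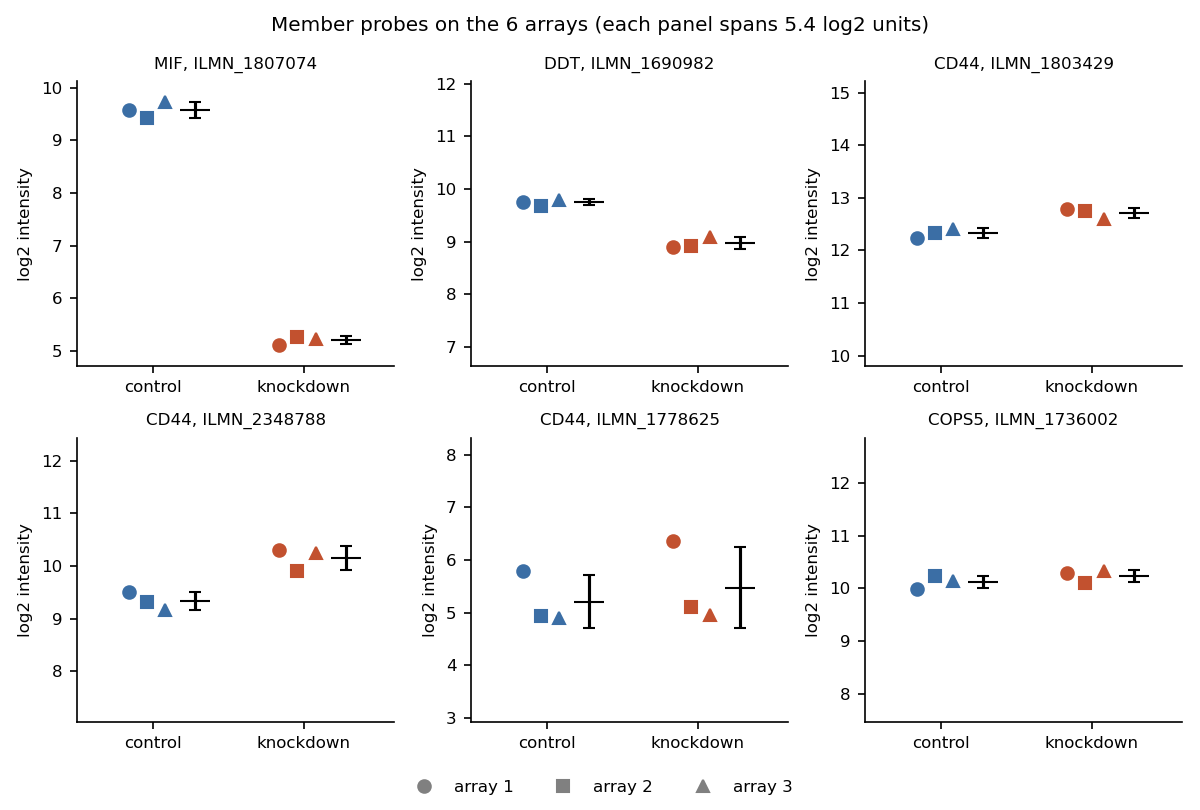
Log2 intensity of each member probe by arm, with the 3 arrays as circle (1), square (2) and triangle (3) and a bar for mean ± SD; every panel spans the same number of log2 units. MIF falls by over 4 units and DDT by under 1, CD44 probes ILMN_1803429 and ILMN_2348788 rise with separate arms, and CD44 probe ILMN_1778625 and COPS5 overlap between the arms.

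DDT was lower too, by far less. Control arrays gave raw intensities of 716.2, 1303.9 and 870.9 and knockdown arrays gave 660.8, 502.6 and 521.8, so the arms were separate before any normalization. Its log2 intensity was 9.76, 9.68 and 9.79 in control cells and 8.89, 8.92 and 9.09 in knockdown cells. The means were 9.74 ± 0.06 and 8.97 ± 0.11 (SD, n = 3), a log2 change of -0.78 ± 0.11 (SE) or 1.71-fold lower. Unlike that of MIF, the DDT signal stayed far above background on the knockdown arrays, at 6.70, 5.50 and 5.77 times the array median. Of the kept probes 6.46% had a lower change. Over all settings the log2 change of DDT lay between -0.84 and -0.70.

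DDT is annotated by ILMN_1690982, assigned to NM_001355. RefSeq lists DDTL, a near copy of DDT, and the transcribed pseudogene GSTT2 as overlapping DDT. DDTL had no kept probe of its own, and how far its transcripts add to the DDT signal was not tested. The log2 changes of the paralogues stood side by side at -4.37 for MIF and -0.78 for DDT, each lower on the knockdown array than on the control array of the same number in 3 of 3 pairs.

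CD44 was higher in knockdown cells by its brighter probes, with arms that did not overlap, and its dimmest probe did not separate the arms. The brightest, ILMN_1803429 (annotated to NM_001001391), gave log2 intensities of 12.24, 12.34 and 12.41 in control cells and 12.79, 12.76 and 12.60 in knockdown cells. The arms did not overlap, though only 0.18 log2 units lay between the highest control and the lowest knockdown array. The means were 12.33 ± 0.09 and 12.71 ± 0.10 (SD, n = 3), a log2 change of 0.38 ± 0.11 (SE) or 1.30-fold higher. On the raw scale the arms overlapped, with 4292.8, 6750 and 5280 in control cells and 7726.1, 6528.5 and 5568.7 in knockdown cells.

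The next CD44 probe, ILMN_2348788 (annotated to NM_001001392), gave a log2 change of 0.82 ± 0.15 (SE), or 1.77-fold higher. Its log2 intensity was 9.50, 9.32 and 9.16 in control cells and 10.31, 9.90 and 10.25 in knockdown cells, again without overlap. Of the kept probes 4.63% had a higher change, against 18.7% for ILMN_1803429. The difference in size between these probes was not tested.

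The dimmest CD44 probe, ILMN_1778625 (annotated to NM_000610), varied more between array numbers than between arms. Its log2 intensity was 5.80, 4.95 and 4.89 in control cells and 6.36, 5.11 and 4.95 in knockdown cells, so array 1 was the highest in both arms and the arms overlapped. The raw values were 113.5, 118.5 and 98.1 against 181.6, 103.1 and 98.7, near the array medians except on knockdown array 1. The log2 change was 0.26 ± 0.38 (SE), and with the array number as a block the error was 0.13. Within the numbers, knockdown exceeded control by 0.56, 0.16 and 0.06. Without knockdown array 1 the change became -0.18 and without control array 1 it became 0.57.

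COPS5 differed by less than its arrays did. Its log2 intensity (ILMN_1736002, annotated to NM_006837) was 10.00, 10.23 and 10.15 in control cells and 10.29, 10.11 and 10.33 in knockdown cells, with overlapping arms. The means were 10.13 ± 0.12 and 10.24 ± 0.12 (SD, n = 3), a log2 change of 0.12 ± 0.12 (SE). Knockdown exceeded control in 2 of 3 pairs of equal number. Of the 6 member probes 4 had arms that did not overlap, beside 45.5% of all kept probes and 50.9% of all genes, and nothing is read from that count because the choice of genes used the comparison.

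**Figure D2:**
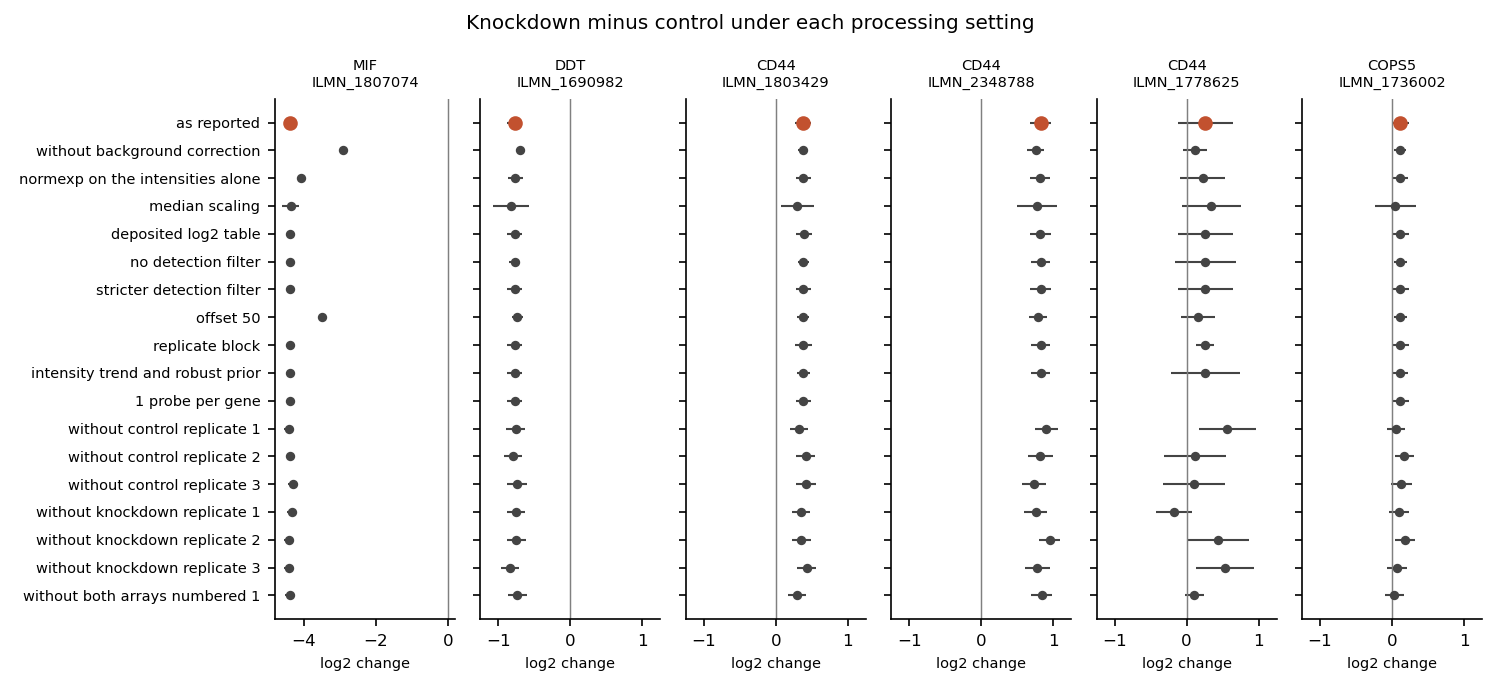
Log2 change (knockdown minus control, bars are SE) of each member probe as reported (red) and under every other processing setting; the MIF panel has its own axis. MIF moves from -4.37 to -2.92 without background correction, and only CD44 probe ILMN_1778625 crosses 0, without knockdown replicate 1.

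By the distance between array profiles, each centred on its own mean over the 6 arrays, the 5 named genes nearest to MIF among 15492 other probes with a symbol were PHGDH (0.283), CPA4 (0.380), CRIP1 (0.462), EVA1A (0.481) and SFRP1 (0.509 log2 units). PHGDH makes the first step of serine synthesis, CPA4 is a carboxypeptidase, CRIP1 a small LIM-domain protein and SFRP1 a secreted antagonist of WNT. CPA4 was 22.7-fold and CRIP1 16.4-fold lower. PHGDH and EVA1A were not detected on any knockdown array and were at least 21.5-fold and at least 21.0-fold lower. They passed the filter through the control arrays, where they were high, so these falls are a description only. Both bounds hold for the background correction used here, on which the size of the MIF fall also rested. SFRP1 was detected on 2 of 3 knockdown arrays. The nearest to the brightest CD44 probe were PKIA (0.0527), RSRC2 (0.0807), POLR2H (0.0879), ZBTB47 (0.0952) and TBL1XR1 (0.0955), with log2 changes of 0.34 to 0.39. All profiles come from the same 6 arrays and mainly hold the difference between the arms.

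**Figure D3:**
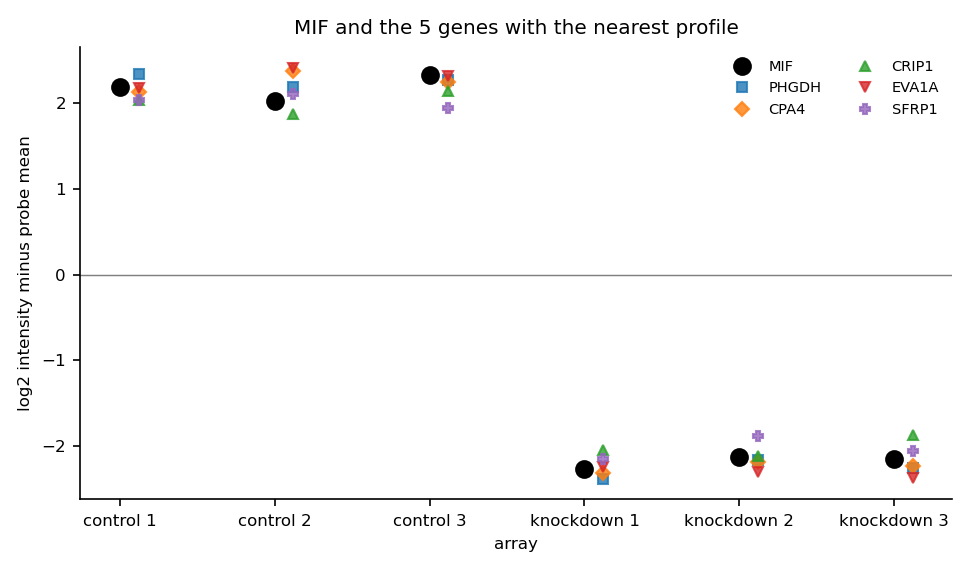
Log2 intensity of MIF (black) and of the 5 genes with the nearest profile on each array, each probe minus its own mean over the 6 arrays. All 6 probes lie about 2 units above their mean on the control arrays and about as far below it on the knockdown arrays.

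The genes that act with MIF, CD44 and COPS5 were tested with limma over all kept probes, each gene by its brightest probe. They were not used to choose the members. Their lists were written from textbook roles with earlier results of these data already known, so the shares called are a description. Of 48 listed genes 32 had a kept probe. In knockdown cells 12 fell, 5 rose and 15 did not pass an adjusted p of 0.05, so 53.1% were called beside 36.9% of all 11646 genes (18.0% lower, 18.9% higher). The 5 include SPP1, whose call is no support for a rise, as given below. The median log2 change of the 32 genes was -0.14, beside 0.03 over all genes. With median scaling in place of quantile normalization, 3 fell and 1 rose. CD74, HMMR, SPP1 and SRGN kept their calls there, and the other 13 calls ended (adjusted p 0.057 to 0.506), while 7.64% of all probes were called in place of 32.3%. All 13 kept their direction, and their median standard error was 0.265 log2 units in place of 0.119. COPS6, for example, was 1.79-fold lower there and 1.81-fold lower with quantile normalization.

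Of the MIF receptors other than CD44, only CD74 had a kept probe. CXCR2, CXCR4 and ACKR3 had none. CD74, which also chaperones MHC class II molecules, had log2 intensities of 7.19, 7.37 and 7.29 in control cells and 4.95, 5.91 and 5.53 in knockdown cells. It fell 3.53-fold (log2 change -1.82 ± 0.22 (SE), adjusted p = 0.00045), and its dimmer probe fell by 1.85 ± 0.13. Without background correction the fall was 1.93-fold. So the ligand MIF and its receptor CD74 were both lower, and the co-receptor CD44 was higher by its brighter probes.

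Of 6 measured proteins that bind MIF, 3 fell, 0 rose and 3 did not pass, with a median log2 change of -0.30. The share called was 50%, beside 36.9% of all genes. TXN, thioredoxin, fell 1.47-fold (log2 change -0.56 ± 0.13, adjusted p = 0.00984), from 12.27, 12.54 and 12.59 to 11.86, 12.01 and 11.84. AIFM1, a mitochondrial flavoprotein that recruits MIF as a nuclease to the nucleus, fell 1.41-fold (adjusted p = 0.0177). PRDX1, a peroxiredoxin, fell 1.29-fold (adjusted p = 0.0456). The chaperone HSP90AB1 (-0.24 ± 0.11 on the log2 scale) did not pass, nor did HSP90AA1 (-0.10) and the ribosomal protein RPS19 (0.06). The call of PRDX1 ended without any 1 of control arrays 2 and 3 or the 3 knockdown arrays (adjusted p 0.105 to 0.146), and that of AIFM1 without control array 2 or 3 or knockdown array 2 (0.05 to 0.0632).

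Of 4 factors reported to act on the MIF promoter, UHRF1 and HIF1A fell, SP1 rose and CREB1 did not pass, so 75% were called beside 36.9% of all genes. UHRF1, an epigenetic reader, fell 2.10-fold (log2 change -1.07 ± 0.12, adjusted p = 0.000329). HIF1A, the oxygen-regulated factor, fell 1.47-fold (adjusted p = 0.00469), and its other 2 probes gave -0.42 and -0.35 on the log2 scale. SP1, a factor of GC-rich promoters, rose 1.53-fold (adjusted p = 0.00379). CREB1 gave 12.61, 11.14 and 10.99 in control cells and 12.88, 11.70 and 11.43 in knockdown cells. Array 1 was thus the highest in both arms, as for CD44 probe ILMN_1778625, and with the array number as a block CREB1 passed (log2 change 0.42 ± 0.11, adjusted p = 0.0164).

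Of 8 measured subunits of the COP9 signalosome, the complex that holds COPS5, 1 fell, 1 rose and 6 did not pass. That is 25% called beside 36.9% of all genes, a difference that was not tested, and the median log2 change was -0.10. COPS6, the partner of COPS5 in the catalytic pair, fell 1.81-fold (log2 change -0.85 ± 0.12, adjusted p = 0.00121), from 8.74, 8.56 and 8.72 to 7.63, 7.92 and 7.90. COPS7A rose 1.35-fold (adjusted p = 0.0117), a call that ended without control array 3 (0.0526). COPS3 (-0.28 ± 0.13) and COPS7B (-0.17 ± 0.11 on the log2 scale) did not pass.

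The ligands and cytoskeletal partners of CD44 changed in both directions. Among 4 measured ligands and hyaluronan enzymes, SRGN, serglycin, a proteoglycan that binds CD44, fell 2.57-fold (log2 change -1.36 ± 0.12, adjusted p = 9.29e-05). SPP1, osteopontin, gave a log2 change of 1.17 ± 0.17 (2.26-fold higher, adjusted p = 0.00114), or 1.33-fold higher without background correction. It was detected on 2 of 3 control arrays, near background at 4.29, 4.76 and 4.75, and on 3 of 3 knockdown arrays. Without the knockdown arrays it would not have passed the filter of 3 arrays, so its call is taken as no support for a rise. Its other SPP1 probe, also dim at a mean of 5.03, gave 0.93 ± 0.11 on the log2 scale. HYAL2, a membrane hyaluronidase, rose 1.5-fold (adjusted p = 0.00447), and the hyaluronan synthase HAS3 (0.07 ± 0.22 on the log2 scale) did not pass. HMMR, another hyaluronan receptor, which also binds the mitotic spindle, fell 3.03-fold (log2 change -1.60 ± 0.19, adjusted p = 0.00044), from 7.97, 8.28 and 8.26 to 6.24, 6.98 and 6.49.

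Of 5 proteins that bind the CD44 tail, 3 fell, 1 rose and 1 did not pass, so 80% were called beside 36.9% of all genes. Within the ERM family the members went apart. RDX, radixin, rose 1.86-fold (log2 change 0.90 ± 0.11, adjusted p = 0.000415), from 9.17, 9.24 and 9.30 to 10.22, 10.10 and 10.08. MSN, moesin, fell 1.80-fold (log2 change -0.85 ± 0.15, adjusted p = 0.0028), and EZR, ezrin, fell 1.47-fold (adjusted p = 0.00679). NF2, merlin, fell 1.64-fold (log2 change -0.72 ± 0.16, adjusted p = 0.00935), near background, from a mean of 5.63 to 4.92. Over the settings tried its log2 change lay between -0.89 and -0.25. Its other 2 probes gave -0.55 and 0.07, so the NF2 probes did not all agree in sign. The series title places the work in tumor cells deficient for NF2, and what this RNA change means for merlin was not tested. ANK3, an ankyrin, did not pass (log2 change -0.06 ± 0.12).

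None of the 3 measured genes of CD44 splicing and shedding passed in limma, beside 36.9% of all genes called, and 0 had an unadjusted p under 0.05. With only 3 genes nothing is read from that count. ADAM10 and ADAM17, which cleave the CD44 ectodomain, gave log2 changes of 0.23 ± 0.16 and 0.01 ± 0.11, and ESRP2, an epithelial splicing factor, gave -0.16 ± 0.13. Of 17 partner genes with more than 1 kept probe, all probes had the same sign in 13, and the exceptions were ADAM17, ANK3, CREB1 and NF2.

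**Figure D4:**
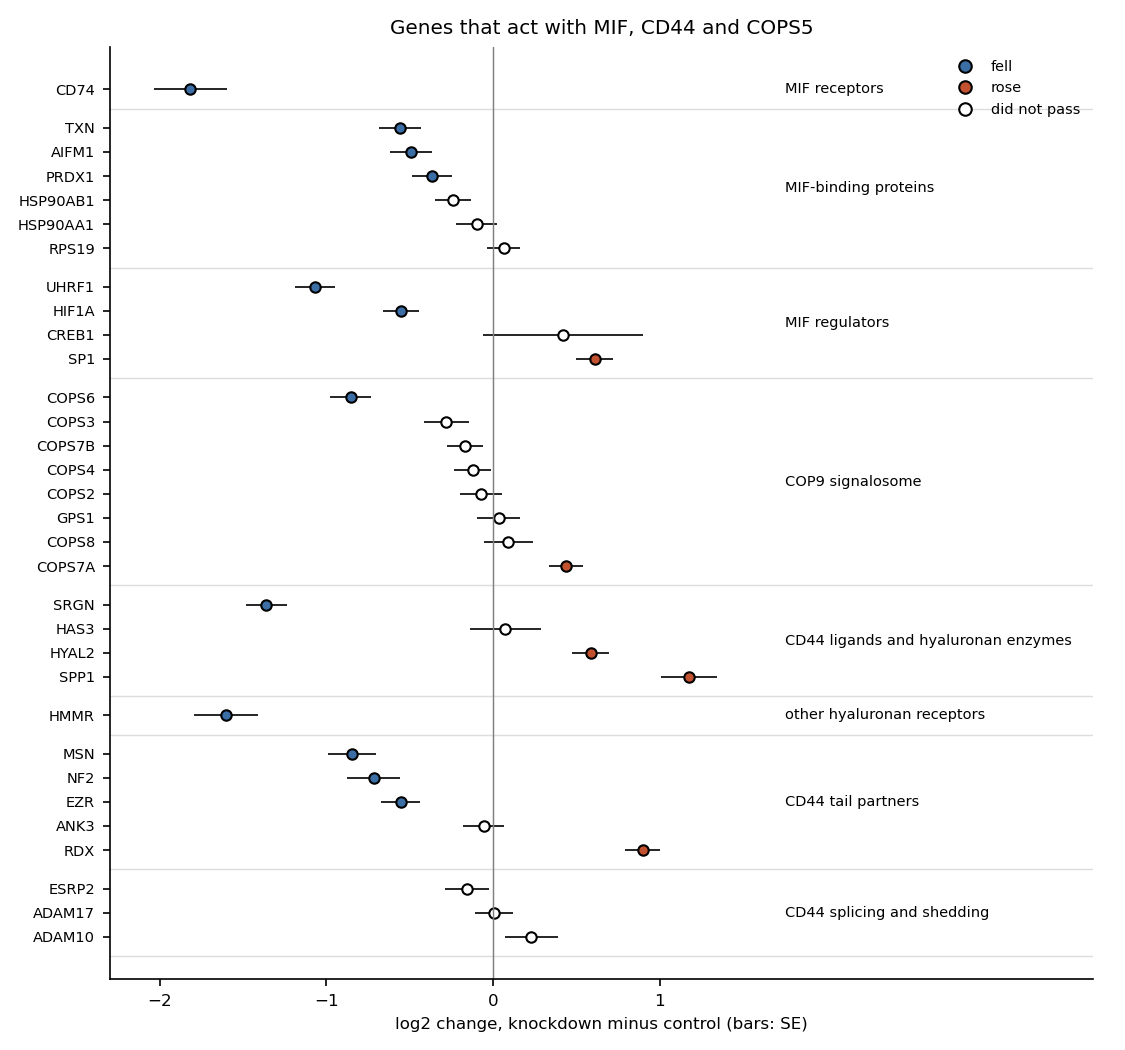
Log2 change (knockdown minus control, bars are SE) of the 32 measured genes that act with MIF, CD44 and COPS5, grouped by role; blue fell, red rose and open circles did not pass. CD74 and HMMR have the largest falls among them, and most COP9 signalosome subunits are open circles near 0. SPP1 has the largest positive change, and without the knockdown arrays it would not have passed the filter.

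The fall of MIF was set against its surroundings on chromosome 22, by the 12 protein-coding genes on each side in the RefSeq order. Besides DDT, 13 of the other 23 had a kept probe. In limma 0 of the 13 fell, also at an unadjusted p under 0.05, 5 rose and 8 did not pass, so 38.5% were called beside 36.9% of all genes. Of these 5, UPB1 and VPREB3 were detected on 1 of 3 control arrays and passed the filter through the knockdown arrays, where they were high. Their calls are therefore no support for a rise. Among the 11 neighbours detected on 2 or more arrays of each arm, a filter chosen after seeing the data, 3 rose and 0 fell (27.3% called). The lowest detected log2 intensity was 4.528 to 4.561 on the control arrays. The control means of UPB1 (4.46) and VPREB3 (4.47) lay below it. Those of GSTT2B, CABIN1 and SLC2A11 lay not far above it, the highest being 5.06 for SLC2A11. These genes had little room to fall, so the count of 0 falls says little about them. UPB1, an enzyme of pyrimidine breakdown, had log2 intensities of 4.34, 4.70 and 4.34 in control cells and 6.25, 6.03 and 5.64 in knockdown cells. The difference was 1.51 ± 0.18 (SE), and 0.54 without background correction. VPREB3 had 4.31, 4.42 and 4.69 in control cells and 5.11, 5.25 and 5.60 in knockdown cells, a difference of 0.84 on the log2 scale, and 0.27 without background correction. ADORA2A, an adenosine receptor, rose 1.64-fold (adjusted p = 0.0326). ZNF70 and MMP11 also rose, by 0.44 and 0.37 on the log2 scale, and are named after their values were seen.

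The genes directly beside MIF in this order, named for their position, were SLC2A11 (0.48 ± 0.22) and GSTT2B (0.07 ± 0.13 on the log2 scale). Neither passed by its brighter probe. The dimmer SLC2A11 probe, near background at a mean of 4.56, gave 0.42 ± 0.13 (adjusted p = 0.0369 in limma). The dimmer GSTT2B probe gave -0.12, opposite in sign. GSTT2B has a near copy, GSTT2, so its signal is uncertain. With the array number as a block SLC2A11 (adjusted p = 0.0352) and SPECC1L (0.0331) passed as well, which made 7 rises. The count of rises was 3 without control array 3, without knockdown array 2 or without knockdown array 3, and 2 with median scaling. In these fits 22.5%, 26.4%, 25.5% and 7.64% of all kept probes were called, in that order. ADORA2A missed the threshold without any 1 array except control array 1 (0.0501 to 0.106), and MMP11 without any 1 of control arrays 1 and 3 and knockdown arrays 2 and 3 (0.0709 to 0.124).

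**Figure D5:**
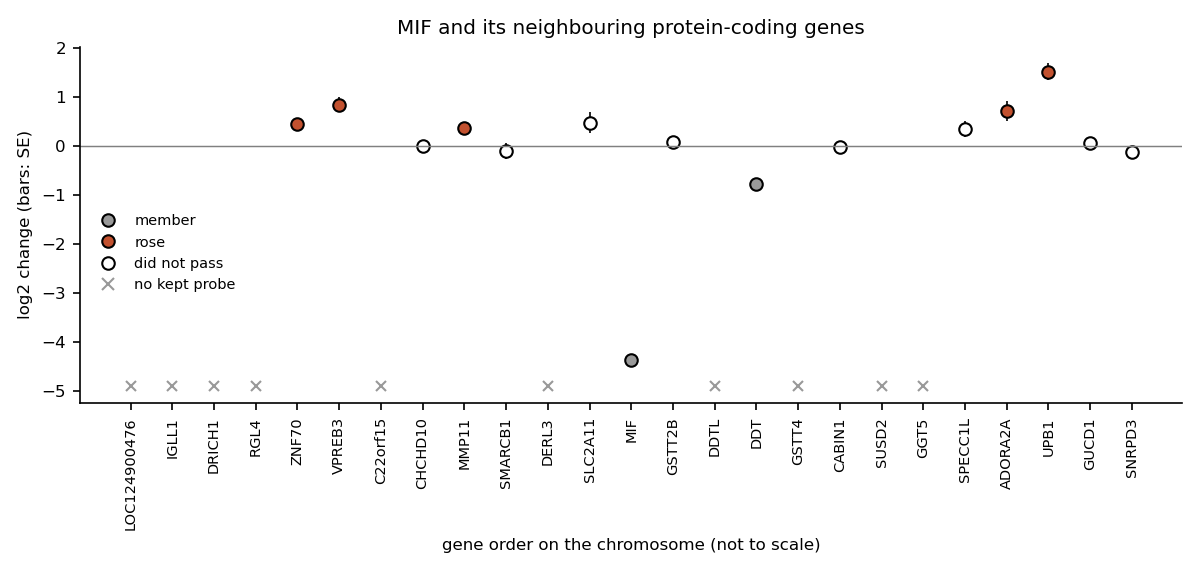
Log2 change (bars are SE) of MIF and of the 12 protein-coding genes on each side, in gene order and not to scale; grey circles are MIF and DDT, red circles rose, open circles did not pass and crosses had no kept probe. Measured neighbours other than DDT lie between -0.13 and 1.51.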

How the data were processed

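The authors deposited probe intensity values, named as non-normalized, and beside each intensity a detection p-value, also deposited. A second deposited table holds the authors' log2 values. For it, limma is the tool in the submitters' processing notes, but its version and settings are not given in sources used here. Of 48202 lines 887 without a probe identifier were left out. Values were background-corrected with the detection p-values (offset 16), quantile-normalized and log2-transformed (neqc, limma 3.58.1, R 4.3.3). They differed from the deposited log2 values by a median of 0.000186 and at most 0.0238. The 20348 probes detected (p under 0.05) on at least 3 arrays were fitted with lmFit and eBayes, with the arm as the only term, and two-sided p-values were adjusted by Benjamini-Hochberg over them. The fit was also run on simulated arrays with independent noise, a check of the code that measures no error rate of the real arrays. Symbols came from the platform annotation, 15484 matched by Entrez identifier. Members and lists were chosen with earlier results of these data known. The genes named were all member probes, YAP1 and WWTR1, measured MIF receptors, up to 4 genes with the largest change per list and among the neighbours, and the 5 nearest profiles of MIF and CD44; others are named where a count is described. Arrays of equal number deviated together (correlations of 0.629, 0.252 and 0.464 over kept probes), which meets the rule for a pairing; the values reported are from the fit without it, and the fit with the number as a block is an alternative, given where it changes a call. The files give no slide. The number of arrays limits the precision. Settings tried were other background corrections, scaling, filters, models and the removal of arrays. A protein alignment planned for MIF and DDT was not run.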

Additional observations from a re-analysis of the deposited data

How the results depend on the processing

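The sign of the change of DDT, COPS5 and CD44 probes ILMN_1803429 and ILMN_2348788 held in all settings run, and each moved by less than the spread between arrays. MIF kept its sign, and its log2 change was -2.92 without background correction, -4.08 with normexp on the intensities alone and -3.49 with an offset of 50. Without 1 array at a time it lay between -4.41 and -4.30. CD44 probe ILMN_1778625 lay between -0.18 and 0.57 without 1 array. Under median scaling 1555 probes were called in place of 6576, with 3 falls and 1 rise among the partner genes in place of 12 and 5, and 2 rises among the neighbours of MIF in place of 5; the standard errors were larger, and the cause was not tested. Among 11 neighbours detected on 2 or more arrays of each arm, chosen after seeing the data, 3 rose (27.3% called, beside 36.9% of all genes). Without 1 array the partner genes gave 10 to 12 falls and 4 to 5 rises, and the neighbours 3 to 4 rises. In those fits 22.5% to 30.1% of all kept probes were called. With the replicate number as a block, 12 partner genes fell and 6 rose, and 7 neighbours rose. In that fit 40.6% of all kept probes were called in place of 32.3%. Among named genes the block added the calls of CREB1, KRT18, SLC2A11 and SPECC1L and ended none. Of 931 pairs of a named partner, neighbour or marker gene with a setting, 38 lost a call, 10 gained one and 0 reversed. Leaving out both arrays numbered 1 was chosen after seeing the data, and MIF then changed by -4.38. Signals near background limit the size of falls such as that of MIF.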
